A study of Homo sapiens with 14 samples.

Results

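The enzymes of asparagine, serine, proline and mitochondrial one-carbon synthesis were followed as RNA in a human colon cancer line. The 10 genes were ASNS, PHGDH, PSAT1, PSPH, SHMT2, MTHFD2, MTHFD1L, ALDH18A1, PYCR1 and ALDH1L2. They were chosen by name with earlier results of these data known, and were matched by symbol to gene identifiers. All 10 were found among the 78686 genes of the deposited tables, and all 10 passed the filter on low counts. That filter left 17251 genes in one set of libraries and 19049 in the other.

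Total RNA was sequenced in HCT116 cells, a line grown from a human colon carcinoma. Every group carried osTIR1(F74G), an engineered plant receptor subunit, and SAF-A-mAID-Halo, the nuclear matrix protein SAF-A (gene HNRNPU) tagged with a degron and a Halo tag. In such cells 5-Ph-IAA, a plant hormone analogue, directs the tagged protein to the proteasome, while Nutlin keeps MDM2 from binding p53. The labels state neither a dose nor whether the engineered line is a single clone, and they do not say that replicates came from separate cultures. The spread behind each p-value is therefore that between these libraries, which may be technical. There were 7 groups of 2 libraries. The time-course set held DMSO vehicle, 5-Ph-IAA for 3 h and 5-Ph-IAA for 12 h. The Nutlin set held DMSO control, Nutlin for 3 h, 5-Ph-IAA control for 3 h, and 5-Ph-IAA with Nutlin for 3 h. The study's title concerns the nuclear matrix and gene induction, and the comparisons ask how these genes answered each agent and whether 5-Ph-IAA altered the answer to Nutlin.

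The libraries held 12.65 to 17.23 M counts (M, mega) in the Nutlin set. In the time-course set they held 29.58 to 35.14 M counts, except replicate 2 of 12 h with 3.535 M counts. HNRNPU lay between 505 and 646 CPM (counts scaled to library depth, per M counts) in the Nutlin set and between 509 and 671 CPM in the time course, where the 12 h libraries were highest (log2 fold change 0.31 ± 0.0626 SE, edgeR adjusted p = 0.00744). Its RNA does not report loss of the tagged protein, so it does not check the 5-Ph-IAA labels. Epithelial keratin genes were abundant (KRT8 at 1271 TPM or more, a scale per transcript length and depth), whereas the intestinal genes CDX2 and VIL1 reached only 4.2 and 0.26 TPM. Of 9 markers of other cell types, CD3E and DCN were at 0 in all 14 libraries, and the 9 together summed to 0.65 to 6.75 TPM. CD68 reached 5.01 TPM (median 2.77), and COL1A1 lay between 0.41 and 1.91 TPM. CD68 differed by set, at 3.51 to 6.96 CPM in the Nutlin set and at most 1.17 CPM in the time course. Replicates differed by more than counting noise in every group. Chi-square divided by its degrees of freedom, a measure that grows with depth, was 3.28 to 22.2. It was highest for the pair given Nutlin alone, beside 6.85 or less in the other groups of the Nutlin set. The libraries given Nutlin alone lay apart on the first principal component of their set, at -0.0907 and 58.3. The 12 h libraries did so in theirs, at 5.31 and 113.

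Cells short of amino acids, or with stress in the endoplasmic reticulum, phosphorylate the initiation factor eIF2α, which lowers protein synthesis in general and raises translation of the transcription factor ATF4. ATF4, paired with a C/EBP protein, binds composite elements in the DNA of genes for amino acid synthesis, import and tRNA charging. ASNS makes asparagine from aspartate. PHGDH, PSAT1 and PSPH turn a glycolytic intermediate into serine, SHMT2 splits serine to glycine and a carbon unit in the mitochondrion, and MTHFD2, ALDH1L2 and MTHFD1L carry that unit towards NADPH, carbon dioxide or formate. ALDH18A1 and PYCR1 make proline from glutamate.

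Promoter letters are shown for the member with the largest response to Nutlin, for another with the same kind of match and no called response, and for the second strongest responder, which had no match. RefSeq windows (build GRCh38.p14) were on hand for 6 members, in 10 windows, and the 250 bases before each start were searched on both strands for TGATGNAA, the C/EBP-ATF composite element, and for CACGTG, the E-box. PSPH, SHMT2, PYCR1 and ALDH1L2 had no entry. The composite element matched in ASNS and MTHFD1L, and occurs in 3.14% of 35116 such windows and in 3.89% of their 27305 genes. The E-box matched in MTHFD1L and ALDH18A1, and occurs in 6.34% of these windows and 7.73% of these genes. The ASNS stretch lies at chr7:97872458-97872487 on the minus strand, and its match starts 68 bases before the RefSeq start. In GENCODE 29 that match overlaps a non-coding part of an ASNS exon. The MTHFD1L stretch lies at chr6:150866346-150866375 on the plus strand. Its match lies in 2 overlapping windows and starts 90 or 129 bases before the RefSeq starts that follow them. It lies after the start that follows a further MTHFD1L window, chr6:150866083-150866332. In GENCODE 29 that match overlaps an MTHFD1L exon, annotated there as coding and as non-coding. The PSAT1 window lies at chr9:78296875-78297124 on the plus strand, outside the annotated gene. Capitals mark the composite-element match, and a match is a run of letters, not a measured binding site. Bases after each start, and words that differ from TGATGNAA by a letter, were not searched. A role of the element in the response to Nutlin was not tested.
ASNS: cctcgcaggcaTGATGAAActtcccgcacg
MTHFD1L: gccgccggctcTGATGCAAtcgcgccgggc
PSAT1: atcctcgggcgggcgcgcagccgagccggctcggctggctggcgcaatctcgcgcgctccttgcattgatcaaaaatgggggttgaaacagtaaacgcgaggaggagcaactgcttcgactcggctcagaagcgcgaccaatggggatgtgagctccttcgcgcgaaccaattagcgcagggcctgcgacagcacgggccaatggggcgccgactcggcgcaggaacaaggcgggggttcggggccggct

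Levels per transcript length in vehicle cells spanned from MTHFD2 to ALDH1L2. In the Nutlin set MTHFD2 stood at 195 ± 21.7 TPM (SD, n = 2), PYCR1 at 105 ± 7.72, SHMT2 at 81.1 ± 5.98 and ALDH18A1 at 41.5 ± 4.73 TPM, with no overlap between neighbours in that order. ASNS, PHGDH, PSAT1, MTHFD1L and PSPH followed at 32.2 ± 4.04, 28.6 ± 1.7, 25.9 ± 5.4, 25.1 ± 1.41 and 23.8 ± 5.33 TPM, and each overlapped the next. ALDH1L2 was lowest at 0.12 ± 0.0424 TPM. In the time-course vehicle the ends of the order were the same, with MTHFD2 at 237 ± 20.4 TPM, PYCR1 at 128 ± 3.97 TPM and ALDH1L2 at 0.205 ± 0.12 TPM. ASNS ranked higher there, at 72.1 ± 10.8 TPM, and overlapped SHMT2 at 70.6 ± 13 TPM. PSAT1 was also higher there, at 42.5 ± 4.68 TPM. Vehicle levels were not compared by a test between sets, because the set and all that was done to it cannot be told apart.

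**Figure D1:**
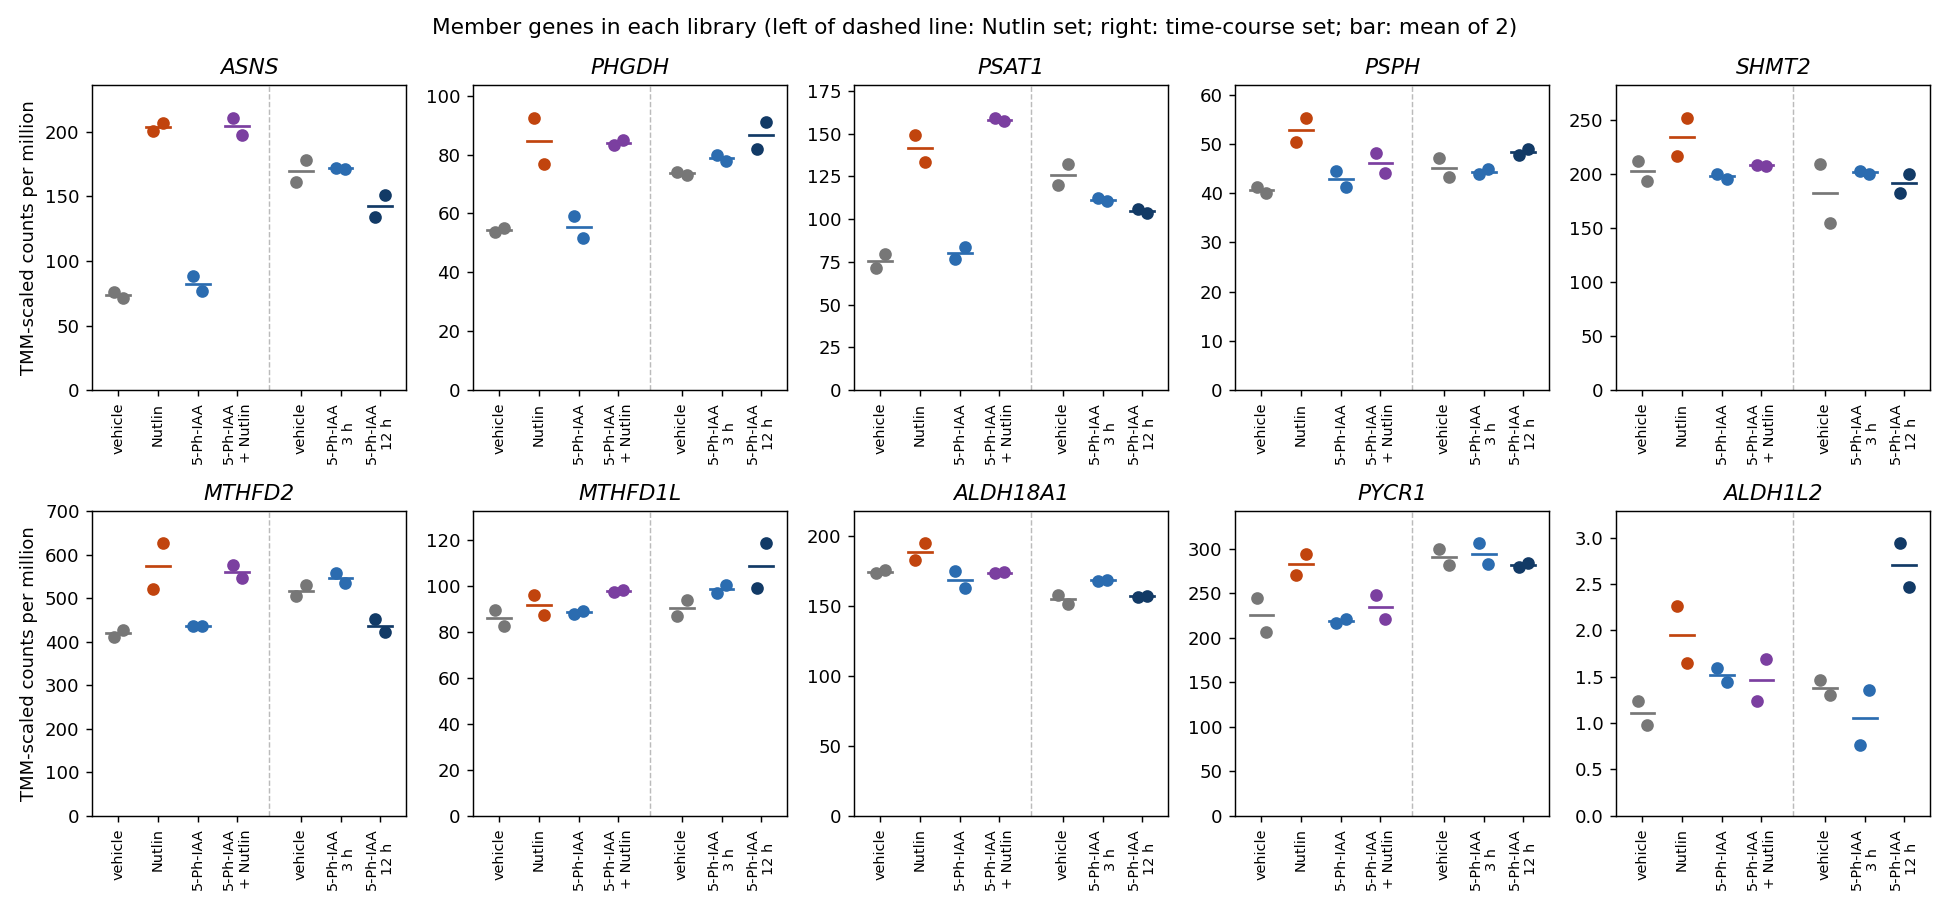
TMM-scaled CPM of the 10 genes in each of the 14 libraries, Nutlin set left of the dashed line and time-course set right of it, with each point a library and each bar the mean of 2. ASNS, PSAT1 and PHGDH stand higher in both groups given Nutlin, and ASNS in the time-course vehicle (161 and 178 CPM) is nearer its Nutlin level than its vehicle level in the Nutlin set.

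Nutlin raised the RNA of ASNS, PSAT1 and PHGDH. ASNS rose 2.77-fold, PSAT1 1.87-fold and PHGDH 1.56-fold against vehicle after 3 h. These 3 of 10 members were called higher and 0 lower by edgeR's quasi-likelihood test with Benjamini-Hochberg adjustment at 0.05, where 0.394% of all tested genes were called higher. Of 14 alternative settings, the call held in 14 for ASNS, 12 for PSAT1 and 5 for PHGDH. All 10 fold changes were above 0, with a median log2 value of 0.417, beside a median of -0.00331 and 49.4% above 0 over all tested genes. Both Nutlin libraries exceeded both vehicle libraries for 9 members, all but MTHFD1L, which holds for 18.3% of tested genes.

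ASNS (chr7:97852118-97872542, minus strand) had 75.6 and 71.6 CPM in vehicle and 201 and 207 CPM with Nutlin. The groups were far apart, and the spread within each was small. The log2 fold change was 1.47 ± 0.099 (SE, edgeR adjusted p = 5.79e-05), which ranked 12 by p among all tested genes. Over the 14 alternative settings of this comparison it stayed between 1.44 and 1.51, and the call held in each of the 14. A same-strand transcript that overlaps ASNS, AC079781.5, had 0.831% to 6.65% of its count.

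Of the 3 serine enzymes, 2 were called higher. PSAT1 (chr9:78297143-78330093, plus strand), the transaminase of the middle step, had 71.5 and 79.5 CPM in vehicle and 149.5 and 133 CPM with Nutlin (log2 0.91 ± 0.101, edgeR adjusted p = 0.00312). Its call was lost without vehicle replicate 1 (log2 0.83, adjusted p = 0.0898) and when only the compared groups were fitted (adjusted p = 0.0745). PHGDH (chr1:119648411-119744226, plus strand), the dehydrogenase that commits carbon to serine, had 53.8 and 54.9 CPM in vehicle and 92.6 and 77.0 CPM with Nutlin. Its Nutlin libraries differed more from each other than its vehicle libraries did. The log2 fold change was 0.64 ± 0.113 (edgeR adjusted p = 0.0481), close to the threshold, and the call was lost in 9 of 14 settings, including the fit with a replicate block (adjusted p = 0.0705), with adjusted p between 0.0503 and 0.4. PSPH (chr7:56011051-56051604, minus strand), the phosphatase that releases serine, had 41.20 and 40.01 CPM in vehicle and 50.5 and 55.4 CPM with Nutlin. Its log2 fold change of 0.38 ± 0.104 did not pass the threshold over all genes (edgeR adjusted p = 0.222).

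Of the 4 mitochondrial one-carbon genes, 0 were called. MTHFD2 (chr2:74198562-74217565, plus strand), a dehydrogenase and cyclohydrolase and the most abundant member, had 412 and 428 CPM in vehicle and 521.5 and 626 CPM with Nutlin. The groups did not overlap, and the 2 Nutlin libraries lay well apart. The log2 fold change of 0.45 ± 0.101 missed the threshold (edgeR adjusted p = 0.125) and passed it in 5 of 14 settings, DESeq2 among them (adjusted p = 0.00661). SHMT2 (chr12:57229327-57234935, plus strand) had 212 and 194 CPM in vehicle and 217 and 252.5 CPM with Nutlin (log2 0.21 ± 0.0986, edgeR adjusted p = 0.486). MTHFD1L (chr6:150865549-151101887, plus strand), which releases formate, had 89.5 and 82.4 CPM in vehicle and 96.2 and 87.5 CPM with Nutlin. Like ASNS it holds a match to the composite element in its printed stretch. The 95% interval of its log2 change ran from -0.112 to 0.301, below the ASNS interval of 1.25 to 1.69. Whether the element bears on either value was not tested.

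ALDH1L2 (chr12:105019784-105084577, minus strand), which oxidises the folate-bound carbon unit, was read from few counts. It had 19 and 13 counts in vehicle and 29 and 27 with Nutlin, for 1.24 and 0.974 against 2.26 and 1.64 CPM. Its log2 fold change of 0.80 ± 0.392 was larger than that of PHGDH but had an edgeR adjusted p of 0.505. The effective length that RSEM assigned to it, a mean over its transcripts, ran from 1028 to 7974 bases across the 14 libraries (7.76-fold, against at most 1.36-fold for another member). It was 5047 and 7780 bases in vehicle and 2262 and 1816 bases with Nutlin. C12orf45, on the opposite strand across the same locus, had 1670% to 5550% of its counts. The kit keeps strand, but whether counting used it is not given in the sources used here, so reads of ALDH1L2 and C12orf45 may not have been told apart.

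Proline synthesis showed no called change. PYCR1 (chr17:81932384-81942412, minus strand), the last enzyme, had 245 and 207 CPM in vehicle and 271 and 294 CPM with Nutlin (log2 0.32 ± 0.107, edgeR adjusted p = 0.329). ALDH18A1 (chr10:95605929-95656706, minus strand), the enzyme that starts the route from glutamate, had 173.5 and 175.5 CPM in vehicle and 183 and 195 CPM with Nutlin (log2 0.11 ± 0.086, edgeR adjusted p = 0.679). For both, the Nutlin libraries were higher. PYCR1 had an unadjusted p of 0.0127 in edgeR and a 95% interval of 0.0855 to 0.561 on the log2 scale, and missed the threshold after adjustment over all genes.

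The calls changed when a Nutlin library was left out. Without Nutlin replicate 1, 7 members were called higher (PSPH, PYCR1, SHMT2 and MTHFD2 besides ASNS, PSAT1 and PHGDH), in a fit that called 11.6% of all genes in either direction and assumed that the lone Nutlin library varied like the other groups. Without Nutlin replicate 2, 4 members were called, with MTHFD2 added, in a fit that called 6.4% of all genes. Without vehicle replicate 1, or fitted on the compared groups alone, ASNS was the 1 member called.

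**Figure D2:**
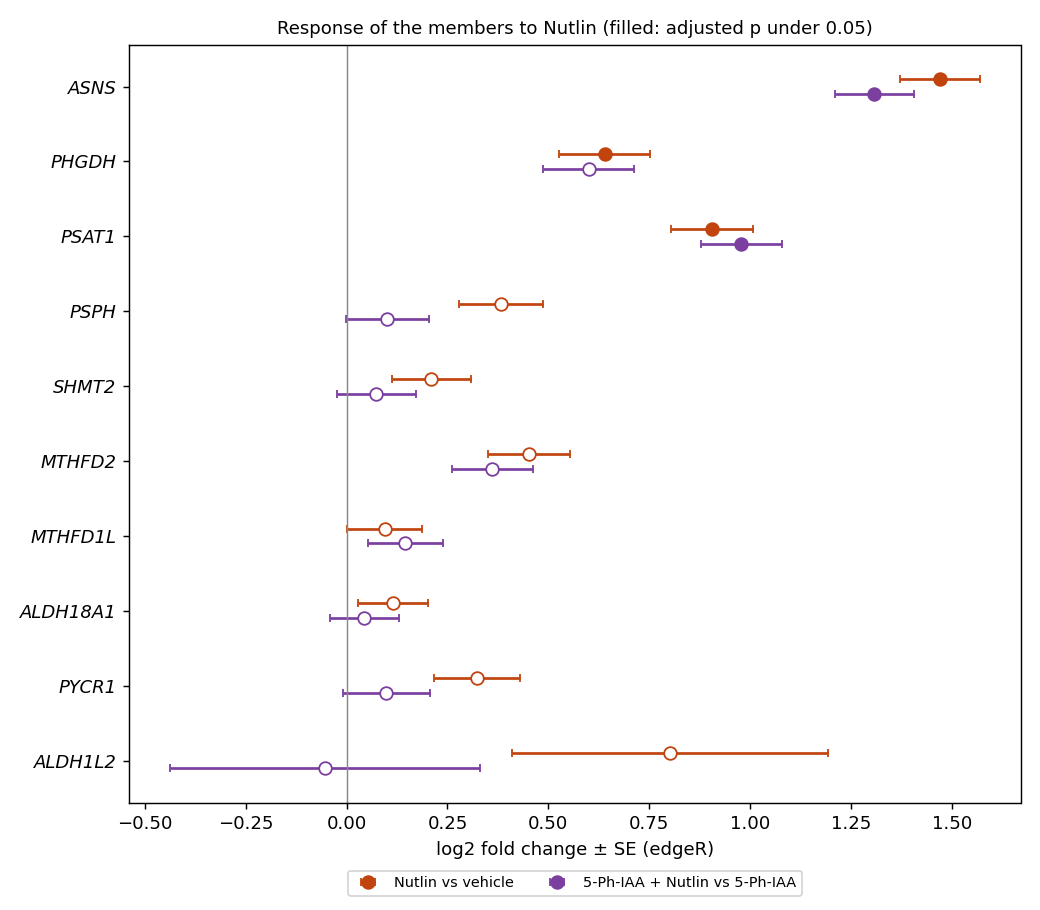
Log2 fold change (horizontal axis) with its SE for each of the 10 genes, for Nutlin against vehicle and for 5-Ph-IAA with Nutlin against 5-Ph-IAA alone, with filled points past the adjusted threshold of 0.05. ASNS lies at 1.47 and 1.31, PSAT1 at 0.91 and 0.98, and PHGDH at 0.64 and 0.60, while ALDH1L2 has the widest bars.

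In cells also given 5-Ph-IAA, ASNS and PSAT1 rose again with Nutlin. ASNS had 88.1 and 76.8 CPM with 5-Ph-IAA alone and 211 and 198 CPM with both agents (log2 1.31 ± 0.0982, edgeR adjusted p = 0.00018). PSAT1 had 76.9 and 83.9 CPM and then 159 and 157 CPM (log2 0.98 ± 0.101, edgeR adjusted p = 0.00197). PSAT1 lost its call without 5-Ph-IAA replicate 1 (adjusted p = 0.112) or without replicate 1 of the combination (adjusted p = 0.0642). These 2 of 10 members were called higher and 0 lower, where 0.342% of all tested genes were called higher. PHGDH had 59.0 and 51.7 CPM and then 83.2 and 84.8 CPM, a change of nearly the size seen without 5-Ph-IAA (log2 0.60 ± 0.113) that missed the threshold (edgeR adjusted p = 0.0761) and passed it in 6 of 14 settings. MTHFD2 had 437 and 437 CPM and then 576 and 547 CPM (log2 0.36 ± 0.101, edgeR adjusted p = 0.335). The remaining 6 lay between -0.05 for ALDH1L2 and 0.15 for MTHFD1L on the log2 scale. Libraries with both agents exceeded those with 5-Ph-IAA alone for 6 members, as for 23.1% of tested genes. The count of called members was 4 without Nutlin replicate 1 or without Nutlin replicate 2, with PHGDH and MTHFD2 added, in fits that called 2.31% and 2.33% of all genes against 0.388% with both. It was 1 without replicate 1 of 5-Ph-IAA or of the combination.

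Whether 5-Ph-IAA altered the Nutlin response was tested as the difference between the responses, the interaction. It was called for 0 of 10 members by edgeR, 0 also at an unadjusted p under 0.05 and 0 by DESeq2, where edgeR called 0% of all genes and 623 genes (3.61%) had an unadjusted p under 0.05. Without Nutlin replicate 1, edgeR called 1035 genes (5.65%) and still 0 members. Among members with a called response, the difference was -0.16 for ASNS (95% interval -0.47 to 0.143), 0.07 for PSAT1 (-0.243 to 0.39) and -0.04 for PHGDH (-0.396 to 0.316) on the log2 scale. The difference was above 0 for 2 of 10 members, beside 51.6% of all tested genes. It was -0.28 for PSPH (-0.607 to 0.045), -0.22 for PYCR1 (-0.561 to 0.112) and -0.86 for ALDH1L2 (-2.08 to 0.368). The intervals include 0 in each of these 6 genes, and they do not show that the responses were equal.

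Averaged over both arms, the Nutlin response was called for 4 of 10 members, all higher, where 0.956% of all tested genes were called higher. ASNS rose by 1.39 ± 0.0697, PSAT1 by 0.94 ± 0.0715, PHGDH by 0.62 ± 0.08 and MTHFD2 by 0.41 ± 0.0715 on the log2 scale, with edgeR adjusted p of 3.72e-06, 9.86e-05, 0.00406 and 0.0221. For these same 4 members each of the 4 libraries with Nutlin exceeded each of the 4 without, which holds for 4.67% of tested genes. The median of the 10 was 0.308, beside -0.0017 over all tested genes. The MTHFD2 call was lost without any one of the vehicle, 5-Ph-IAA or combination libraries (adjusted p between 0.112 and 0.179), while its fold change stayed between 0.34 and 0.47 over the 13 settings. Without Nutlin replicate 1, PSPH, PYCR1 and SHMT2 were called as well, for 7 members, in a fit that called 9.07% of all genes in either direction, against 1.44% with both Nutlin libraries.

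The other genes of these pathways mostly did not follow. Of 9 further genes of asparagine, aspartate and alanine metabolism, 2 rose in the averaged comparison and 0 fell. GPT2, a mitochondrial alanine transaminase, went from 28.8 and 30.1 CPM in vehicle to 45.8 and 52.6 CPM with Nutlin, and its averaged log2 change was 0.77 ± 0.0765 (edgeR adjusted p = 0.000702). GOT1, the cytosolic aspartate transaminase, changed by 0.33 ± 0.0651 (edgeR adjusted p = 0.0388). Of 11 further serine and glycine genes 8 were tested and 0 were called, and the 2 most expressed, DLD and GCSH of the glycine cleavage system, had log2 values of 0.01 and -0.12. Of 7 further proline and glutamate genes 0 were called, with OAT, which feeds ornithine into the route, at -0.06 and GLUD1, glutamate dehydrogenase, at 0.01. Of 21 further folate and one-carbon genes 0 were called, with AHCY, which clears S-adenosylhomocysteine, at 0.06 and GART, of purine synthesis, at 0.07.

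Of 14 genes known to regulate the members, 7 rose in the averaged comparison and 0 fell. DDIT3, a C/EBP-family factor of the stress response, went from 14.5 and 15.2 CPM in vehicle to between 147 and 152 CPM with Nutlin (averaged log2 3.08 ± 0.0838, edgeR adjusted p = 8.78e-08). TRIB3, a pseudokinase that restrains ATF4, rose by 1.62 ± 0.0819 (edgeR adjusted p = 3.77e-06). ATF4 itself went from 377 and 401 CPM in vehicle to 748 and 815 CPM with Nutlin, and its averaged log2 change was 0.87 ± 0.0657 (edgeR adjusted p = 9.86e-05). CEBPB, which pairs with ATF4, rose by 1.07 ± 0.113 (edgeR adjusted p = 0.00109). CEBPG, EIF2AK3 and MDM2 were the others, at 0.63, 0.58 and 0.56. MDM2 is itself a target of p53 and the protein that Nutlin binds. The interaction with 5-Ph-IAA was called for 0 of the 14, with a median log2 value of 0.0314. It was -0.51 for DDIT3 (unadjusted p = 0.0108 in edgeR), -0.45 for TRIB3 (0.0201) and -0.28 for ATF4 (0.0611), each with an adjusted p of 0.989. This list mixes the stress pathway with p53, and it was drawn up with earlier results of these data known.

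**Figure D3:**
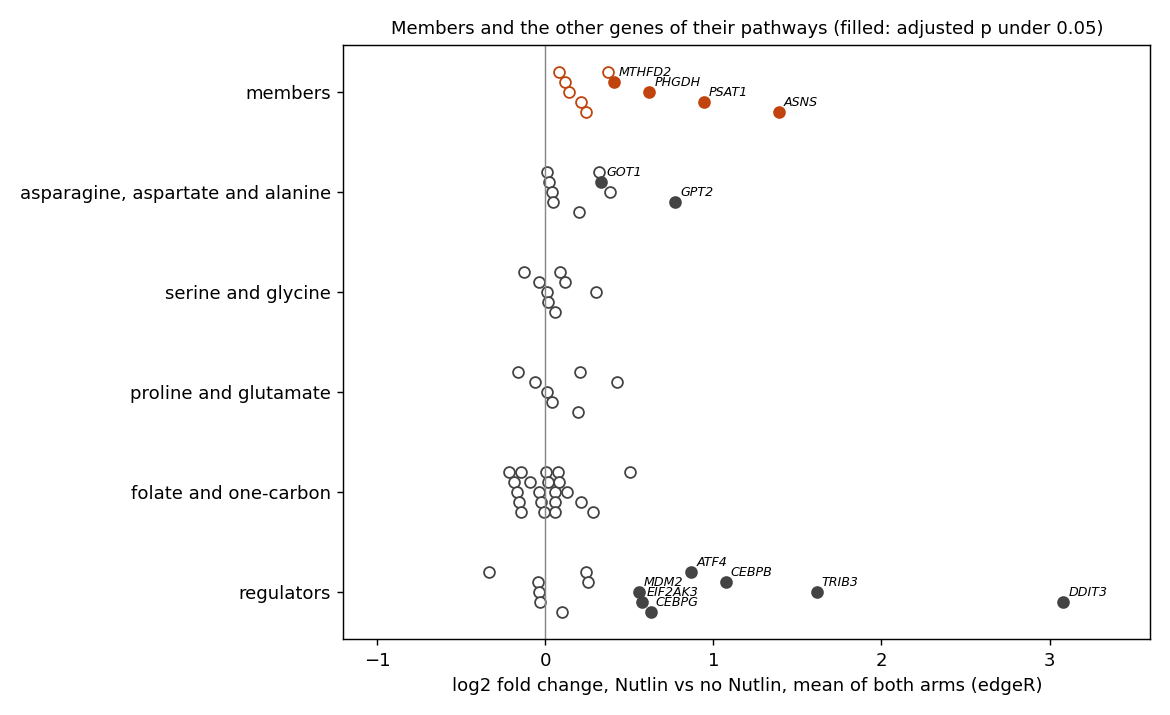
Log2 fold change for Nutlin against no Nutlin averaged over both arms (horizontal axis) for each tested gene of the 10 members and of 5 lists, with filled and named points past the adjusted threshold of 0.05. Among members ASNS, PSAT1, PHGDH and MTHFD2 are filled, the lists of serine and glycine, proline and glutamate, and folate and one-carbon genes hold 0 filled points, and DDIT3 lies farthest right at 3.08.

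Across the 14 libraries, each set against its own vehicle mean, each member was correlated with the median of the other 9. Pearson's r was 0.833 for ASNS, 0.803 for PSPH, 0.796 for PHGDH, 0.748 for MTHFD2, 0.737 for PYCR1 and 0.722 for PSAT1. It was 0.426 for SHMT2, 0.378 for ALDH18A1, 0.269 for ALDH1L2 and 0.148 for MTHFD1L. The median of all 10 was 0.313 and 0.473 in the Nutlin libraries, 0.215 and 0.289 with both agents, and between -0.0304 and 0.0899 on the log2 scale in the other 10. Among 12319 other genes the 6 most like that median were SLC3A2 (r = 0.953), ATF4 (0.939), CDKN1A (0.939), DDIT3 (0.937), TRIB3 (0.937) and TSC22D3 (0.933). SLC3A2 is the heavy chain of amino acid transporters, CDKN1A is the p53-induced cell cycle inhibitor p21, and TSC22D3 is a leucine-zipper protein induced by glucocorticoids. These r values describe likeness over libraries that share depth and scaling within a set, and the 4 libraries with Nutlin hold the highest values of the median.

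After 3 h of 5-Ph-IAA without Nutlin, 0 of 10 members were called in either set. In the Nutlin set 5-Ph-IAA against vehicle gave 0 members at an unadjusted p under 0.05 and 0 by DESeq2. There edgeR called 0% of all genes, and 245 genes (1.42%) had an unadjusted p under 0.05. The log2 values ran from -0.05 for ALDH18A1 to 0.45 for ALDH1L2, and ASNS stood at 0.17 ± 0.0988. In the time course 3 h against vehicle gave 1 member at an unadjusted p under 0.05 and 0 by DESeq2, where edgeR called 0.0682% of all genes and 1228 genes (6.45%) had an unadjusted p under 0.05. That member was PSAT1, with 120 and 132 CPM in vehicle and 112 and 110 CPM at 3 h (log2 -0.18 ± 0.0803, edgeR adjusted p = 0.766). In the Nutlin set the same contrast gave PSAT1 a value of 0.09 ± 0.102. ASNS had 161 and 178 CPM in the time-course vehicle and 172 and 171 CPM at 3 h, inside the vehicle range. SHMT2 had the widest vehicle pair of the time course, 209.8 and 154.8 CPM, and without vehicle replicate 1 it was called higher at 3 h (log2 0.40, edgeR adjusted p = 0.0201).

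Adding 5-Ph-IAA to Nutlin likewise gave 0 called members by edgeR, 1 at an unadjusted p under 0.05 and 0 by DESeq2, where edgeR called 0% of all genes and 1404 genes (8.14%) had an unadjusted p under 0.05. PYCR1 was that 1, with 271 and 294 CPM with Nutlin and 248 and 221.5 CPM with both agents (log2 -0.27 ± 0.107, edgeR adjusted p = 0.604). ASNS differed by 0.00 with a 95% interval of -0.211 to 0.215 on the log2 scale. Without Nutlin replicate 1, PYCR1 (log2 -0.33) and SHMT2 (log2 -0.28) were called lower, in a fit that called 13.6% of all genes.

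At 12 h of 5-Ph-IAA MTHFD2 fell, and it was the only member called by edgeR in that comparison. MTHFD2 had 505 and 530 CPM in vehicle, 557 and 536 CPM at 3 h and 452 and 423 CPM at 12 h. The 12 h libraries were below the other 4, and the log2 fold change against vehicle was -0.24 ± 0.0636 (edgeR adjusted p = 0.0301). That is 1 of 10 members called, near the share over all tested genes, of which 11.4% were called in either direction and 7.97% lower. Against 3 h, MTHFD2 fell by 0.32 on the log2 scale (SE 0.0636, edgeR adjusted p = 0.0102), again the 1 member called, where 8.14% of all genes were called and 5.79% lower. The call against vehicle held in 7 of 12 settings. It was lost without vehicle replicate 2 (log2 -0.20), without 12 h replicate 1 (-0.28) or without the shallow 12 h replicate 2 (-0.20). It was also lost when only the compared groups were fitted (edgeR adjusted p = 0.0715) and with all 14 libraries in 1 fit (0.0842). The call against 3 h was lost without 3 h replicate 1 (log2 -0.31). Without vehicle replicate 1, 4 members were called at 12 h against vehicle, MTHFD2, ASNS and PSAT1 lower and SHMT2 higher. Against 3 h, ASNS missed the threshold (log2 -0.28 ± 0.0865, edgeR adjusted p = 0.069) and passed it in 7 of 12 settings. These were DESeq2 (adjusted p = 0.0328), no low-count filter (0.00935), a replicate block (0.0407), the compared groups only (0.044), and without either vehicle library or the shallow 12 h replicate 2.

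ASNS and PSAT1 were lower at 12 h by a similar amount without passing the threshold. ASNS had 134 and 151.5 CPM at 12 h, both below the vehicle libraries (log2 -0.26 ± 0.0865, edgeR adjusted p = 0.0723). It passed in 5 of 12 settings, with DESeq2 (adjusted p = 0.0465), with a replicate block (0.0474) and without the shallow 12 h replicate 2 (0.0373) among them. PSAT1 had 106 and 104 CPM at 12 h (log2 -0.26 ± 0.0844, edgeR adjusted p = 0.0653). PHGDH, in the step before PSAT1, lay on the other side, with 74.2 and 73.1 CPM in vehicle and 82.0 and 91.0 CPM at 12 h (log2 0.22 ± 0.0915, edgeR adjusted p = 0.16). MTHFD1L was also higher without a call, at 99.0 and 119 CPM against 86.8 and 93.8 CPM in vehicle (log2 0.24 ± 0.0996, edgeR adjusted p = 0.145). Groups did not overlap for 4 members that were higher, as for 22.9% of tested genes, and for 3 that were lower, as for 27.9%. 

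The rest of the 10 were not called either. PSPH had 47.1 and 43.4 CPM in vehicle and 47.8 and 49.0 CPM at 12 h. SHMT2, ALDH18A1 and PYCR1 overlapped with vehicle, at log2 values of 0.06, 0.02 and -0.05. ALDH1L2 had 49 and 44 counts in vehicle, 26 and 45 at 3 h and 88 and 9 at 12 h, the last from the shallow library. After scaling that was 2.94 and 2.47 CPM at 12 h against 1.46 and 1.30 CPM in vehicle, with a log2 fold change of 0.99 ± 0.542 (edgeR adjusted p = 0.289). Its effective length was 1028 and 3909 bases in the 12 h pair.

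**Figure D4:**
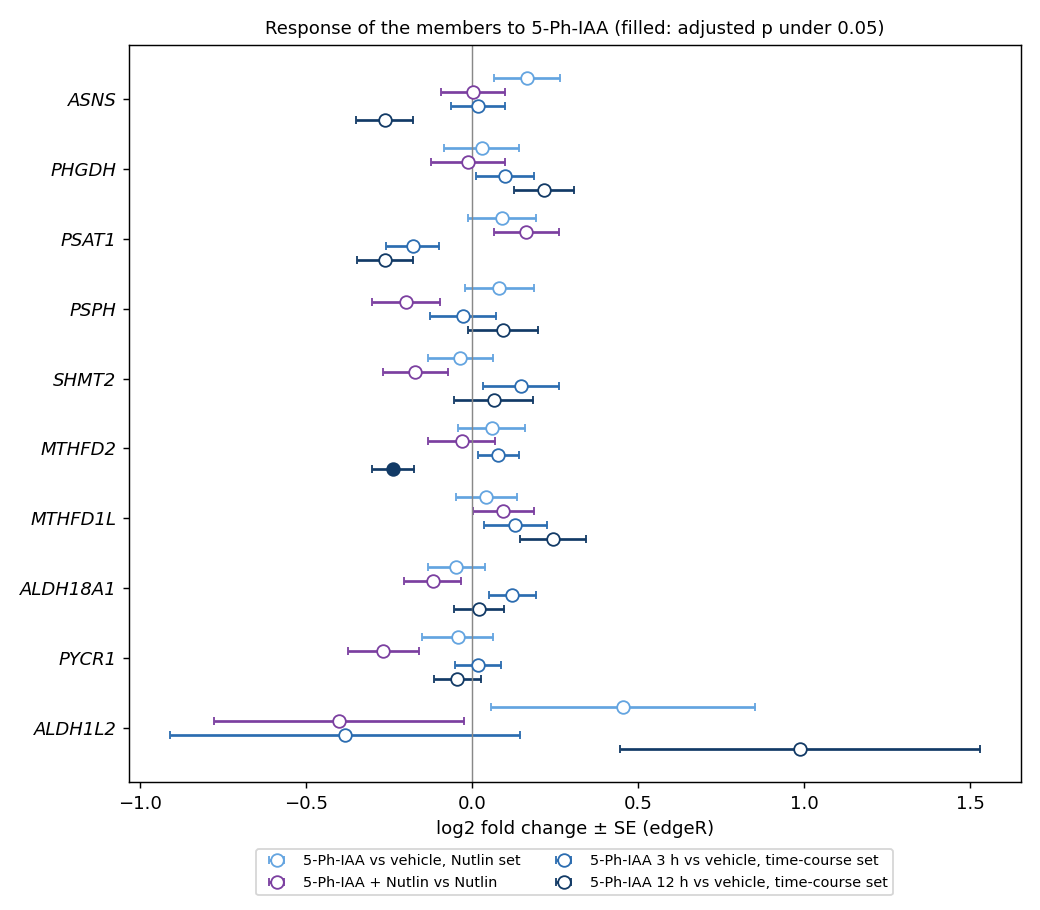
Log2 fold change (horizontal axis) with its SE for 5-Ph-IAA in the 10 genes, at 3 h in the Nutlin set without and with Nutlin and at 3 h and 12 h in the time course, with filled points past the adjusted threshold of 0.05. MTHFD2 at 12 h, at -0.24, is the 1 filled point, ASNS and PSAT1 at 12 h lie near it at -0.26, and ALDH1L2 has the widest bars.

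Other genes of the same pathways were called at 12 h against vehicle in both directions, in the comparison where 11.4% of all tested genes were called and 7.97% were called lower. All of those named here were chosen after their values were seen. Of the glycine cleavage system, the mitochondrial route that splits glycine, GCSH fell by 0.82 on the log2 scale (SE 0.141, edgeR adjusted p = 0.0033) and DLD by 0.50 (SE 0.0883, 0.00376). These were 2 of 8 serine and glycine genes, with 0 higher. GLDC and AMT of the same system were not called and were low. GLDC had 1.89 and 3.32 CPM in vehicle and 2.74 and 3.29 CPM at 12 h. AMT had 0.956 and 4.28 CPM in vehicle and 1.8 and 1.92 CPM at 12 h. Of 20 tested folate and one-carbon genes 1 rose and 2 fell, among them SLC25A32, the mitochondrial folate carrier, which went from 97.1 and 107 CPM to 64.5 and 72.9 CPM (log2 -0.59 ± 0.1, edgeR adjusted p = 0.00304). GGH, which trims folate tails, changed by -0.50, and SLC19A1, the folate carrier of the cell membrane, by 0.50. Of 7 proline and glutamate genes OAT fell by 0.27, and PYCR3, a cytosolic pyrroline carboxylate reductase, rose by 0.48. Of 9 asparagine, aspartate and alanine genes GOT2, the mitochondrial aspartate transaminase, rose by 0.37, and the others were not called. Of 14 regulators 2 rose and 3 fell. ATF4 rose by 0.31 (SE 0.0646, edgeR adjusted p = 0.00939), and its partner CEBPG changed by -0.36, EIF2AK3 by -0.65 and MDM2 by -0.39. ASNS was lower in that comparison without a call (log2 -0.26 ± 0.0865, edgeR adjusted p = 0.0723). Both ATF4 and ASNS were called higher with Nutlin, and a link between them was not tested. In both 3 h comparisons of 5-Ph-IAA against vehicle, 0 genes of these 5 lists were called.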

How the data were processed

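RNA was sequenced from 14 HCT116 libraries prepared with a stranded total RNA kit, per the labels. Each deposited table is an RSEM gene table that, per the file headers, holds the authors' expected counts and TPM for 78686 gene identifiers. The submitters' processing notes name STAR 2.7.10b, RSEM, DESeq2 1.48.1 and hg38 (GRCh38), and the role of each and the annotation release are not given in the sources used here. Symbols were found for 61463 identifiers (78.1%), and positions come from GENCODE 29 on GRCh38. Annotated pseudogene copies of the members held at most 0.0527% of a member's count.

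Expected counts were rounded to whole numbers and tested with edgeR 4.0.16 in R 4.3.3. The 2 sets had separate fits, with TMM factors, 1 coefficient per group and filterByExpr (minimum count 10, minimum total 15). Tests were quasi-likelihood F tests, 2-sided, adjusted by Benjamini-Hochberg over all tested genes at 0.05, and the SE is the log2 fold change divided by the square root of F. CPM are TMM-scaled within a set, with a prior count of 2 on the log scale. The biological coefficient of variation was 0.114 in the Nutlin set and 0.176 in the time course, with 4 and 3 residual degrees of freedom. The method was tested on simulated data. Alternatives were DESeq2 1.42.0, RLE factors, no filter, a replicate block, each library left out, the compared groups only and all 14 libraries in 1 fit. Samples with the same replicate number did not deviate together (r from -0.0888 to 0.047), so the numbers were not used to pair them. With 2 libraries a group, a permutation test of 1 gene cannot pass the threshold.

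The 10 members and the gene lists were chosen with earlier results of these data known. All members are named in each comparison, and of each other list up to 4 genes called in the averaged Nutlin comparison, by p, or else the 2 most expressed. Results for 2 of the listed genes are not reported here.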

Additional observations from a re-analysis of the deposited data

Results flagged for a closer look

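In the time course, the responses to 5-Ph-IAA at 3 h and at 12 h differed by edgeR's test of 12 h against 3 h for 1 of 10 members and 5 other listed genes. The log2 difference of 12 h from 3 h was -0.318 for MTHFD2 (adjusted p = 0.0102). Among pathway genes it was -0.771 for GCSH (0.00674), -0.637 for SLC25A32 (0.00332) and -0.394 for SFXN1, a mitochondrial serine transporter (0.0218). It was -0.483 for MDM2 (0.00182) and 0.29 for HNRNPU (0.0151). By list these were 1 of 8 tested serine and glycine genes, 2 of 20 folate and one-carbon genes, 1 of 14 regulators and the targeted gene. The 9 asparagine, aspartate and alanine genes and the 7 proline and glutamate genes held 0. Of all tested genes, 8.14% were called in this comparison. These counts do not set the listed genes apart from that share, and no test of a share was run. In addition, 1 of the 2 libraries at 12 h held 3.535 M counts.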

How the results depend on the processing

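Of 1180 values of single members under other settings, 1117 kept their call or lack of one, 25 lost a call, 38 gained one and 0 called values changed direction. Signs changed for 32 values that were called neither way. Most of the 1180 values were of members not called in the main fit, so the 1117 do not measure how stable the calls were. Of the 25 lost calls, 11 were in Nutlin against vehicle, where 3 members were called. ASNS kept its call in all settings of the 3 Nutlin comparisons. In counts of called members, Nutlin against vehicle gave 3 and went to 1 on the compared groups only and to 1 to 7 with each library left out. With 5-Ph-IAA present it gave 2, then 4 on the compared groups only and 1 to 4 with a library left out. The averaged comparison gave 4, and 3 to 7 with a library left out. Adding 5-Ph-IAA to Nutlin gave 0, and 0 to 2 with a library left out, and 3 h in the time course gave 0, and 0 to 1. At 12 h against vehicle the count was 1, then 2 with DESeq2, 3 with no low-count filter, 2 with a replicate block, 0 on the compared groups only, 0 with all 14 libraries in 1 fit, and 0 to 4 with a library left out. At 12 h against 3 h it was 1, then 2 with DESeq2, 2 with no filter, 2 with a replicate block, 2 on the compared groups only, and 0 to 2 with a library left out. The interaction and 5-Ph-IAA against vehicle in the Nutlin set stayed at 0 members in all settings run. The replicate block gave 2 members for Nutlin against vehicle, without PHGDH. Over all genes, Nutlin against vehicle called 80 genes, 2131 without Nutlin replicate 1 and 1177 without Nutlin replicate 2. Where a library was left out, the lone one was assumed to vary like the other groups. The cause of these changes was not tested. The 3.535 M counts of the shallow 12 h library limit the 12 h values, those of ALDH1L2 most.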
